A study of Mus musculus with 17 samples.

Results

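The genes described here are 10 components of TGF-beta and BMP signalling, chosen by symbol from a table of 22859 genes counted in synovial macrophages. They were the ligand gene Tgfb1, the receptor genes Tgfbr1, Tgfbr2 and Bmpr2, the SMAD genes Smad2, Smad3 and Smad4, and the inhibitor genes Smad7, Ski and Skil. All 10 were present in the table and passed the filter on low counts, with at least 33 counts in every library. Macrophages of the synovium, which is the lining tissue of joints, had been sorted as LYVE1+CX3CR1+, MHCII+CD11c− (label IAIE) and MHCII+CD11c+ (label CD11c) cells. Control mice and mice that had received immune complexes (IC), antibody bound to antigen, into a vein 8 h earlier were compared. All groups, controls included, are labelled Fcgr2b-KO, so every mouse was given as lacking the inhibitory Fc receptor for IgG, and no wild-type group was analysed here. The mice were adults, and the methods of the study name ovalbumin and rabbit antibody to it as the IC. There were 17 libraries from 5 ng of RNA each, 3 per subset and treatment, apart from the 2 of MHCII+CD11c+ macrophages after IC. The labels do not say whether libraries of a group came from separate mice or from pools. A legend of the study on the same sorted subsets, not stated to cover these libraries, points to several mice behind each library. The p-values measure the spread between these libraries, which may be technical.

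TGF-beta is secreted in a latent form and, once released, is bound by the type II receptor TGFBR2, which recruits and activates the type I receptor TGFBR1. TGFBR1 phosphorylates SMAD2 and SMAD3, which enter the nucleus with SMAD4. BMPR2 is a type II receptor for bone morphogenetic proteins, whose signals pass through SMAD1 and SMAD5. SMAD7 blocks the receptors, SKI and SKIL (also called SnoN) repress SMAD-dependent transcription, and TGF-beta is known as a signal that maintains some tissue-resident macrophages.

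Libraries held between 2301913 and 7248939 counts. At equal depth, between 11547 and 13868 genes were detected in LYVE1+CX3CR1+ libraries after IC and between 13804 and 17581 in the others. The sorted identity was checked with markers of each subset. The summed level of H2-Ab1, H2-Eb1, H2-Aa and Cd74 was at most 156 CPM (counts scaled to a common library size by TMM) in LYVE1+CX3CR1+ libraries and at least 11130 CPM in MHCII+ libraries, and Itgax, which encodes CD11c, was between 275 and 443 CPM in MHCII+CD11c+ libraries and at most 16 CPM elsewhere. Fcgr2b had counts in 17 of 17 libraries, between 69.3 and 248 CPM, so the counts per gene do not check the knockout label. Replicate 2 of the MHCII+CD11c− controls and replicate 2 of the MHCII+CD11c+ controls stood apart from the other libraries of their groups. The chi-square per degree of freedom against those was 39.2 and 28.4 in the former group and 36.6 and 27.7 in the latter, against 11.8 and 12.1 between the other replicates. Between MHCII+CD11c− libraries after IC it was 21.4, 29.5 and 15.3, so values near 28 were not limited to replicate 2. Both replicate 2 libraries held the most counts of their groups (5804056 and 5598198), and the statistic was not corrected for depth.

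The stretches of 250 bases before the RefSeq start (GRCm38.p6) are printed for the receptor gene that differed most between subsets, its partner and their ligand, 5′ to 3′ on the strand of the gene. Capitals mark matches on either strand to CAGAC, the core bound by SMAD proteins, to GAGGAA, a PU.1-type site, or to the GC box GGGCGG.
Tgfbr2, chr9:116175364-116175613, minus strand: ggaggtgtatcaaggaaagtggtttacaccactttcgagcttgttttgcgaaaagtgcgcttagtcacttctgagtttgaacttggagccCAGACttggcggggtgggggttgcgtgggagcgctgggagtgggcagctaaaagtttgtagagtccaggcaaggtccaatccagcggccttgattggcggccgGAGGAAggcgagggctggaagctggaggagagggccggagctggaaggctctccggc
Tgfbr1, chr4:47352972-47353221, plus strand: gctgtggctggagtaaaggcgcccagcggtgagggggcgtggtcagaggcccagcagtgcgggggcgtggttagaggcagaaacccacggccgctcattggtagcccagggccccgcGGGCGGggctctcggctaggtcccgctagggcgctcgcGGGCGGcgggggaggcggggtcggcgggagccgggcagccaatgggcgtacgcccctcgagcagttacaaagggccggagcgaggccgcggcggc
Tgfb1, chr7:25686752-25687001, plus strand: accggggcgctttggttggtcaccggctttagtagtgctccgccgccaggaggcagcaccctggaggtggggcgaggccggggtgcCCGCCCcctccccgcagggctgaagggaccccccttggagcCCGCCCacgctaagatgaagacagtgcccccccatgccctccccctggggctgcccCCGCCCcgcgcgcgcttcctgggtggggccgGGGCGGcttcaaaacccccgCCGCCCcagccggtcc
The stretch before Tgfbr2 had 58.4% G and C and held 1 CAGAC, 1 GAGGAA and no GC box. Those before Tgfbr1 and Tgfb1 had 74.8% and 75.2% G and C, and held 2 and 5 GC boxes with no CAGAC or GAGGAA. RefSeq gives Tgfbr1 another start further downstream, and the stretch before it (chr4:47385966-47386215), not printed here, had 52.8% G and C, 1 CAGAC, 1 GAGGAA, 2 TGCTGA and no GC box. Among 32851 RefSeq stretches of the same length, 42.2% held CAGAC, 23.3% held GAGGAA and 32.7% held GGGCGG, so each of these matches is common. The MAF half-site TGCTGA, which 16.1% of stretches held, and the AP-1 site TGANTCA, which 6.75% held, were also searched for and were not found in the 3 printed stretches.

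Tgfb1 (chromosome 7, 25687002 to 25705077, plus strand) was at a similar level in all 3 subsets and lower in every IC library than in every control library of the same subset. In LYVE1+CX3CR1+ macrophages it was at 339, 335 and 332 CPM in controls and at 287, 287 and 263 CPM after IC. In MHCII+CD11c− macrophages the levels were 366, 373 and 369 CPM against 295, 315 and 259 CPM, and in MHCII+CD11c+ macrophages 342, 377 and 346 CPM against 313 and 316 CPM. The groups therefore did not overlap in any subset, a pattern shown in this direction by 0.511% of the 15272 genes tested. The difference was small, with a log2 fold change of −0.26 ± 0.09 (SE) averaged over the subsets, and it did not pass the test (edgeR quasi-likelihood, adjusted p = 0.0946). In single subsets it was −0.27 ± 0.14, −0.35 ± 0.14 and −0.17 ± 0.16 in the order above (adjusted p = 0.414, 0.365 and 1). DESeq2 called the averaged difference (adjusted p = 0.00618) and that of MHCII+CD11c− macrophages (adjusted p = 0.0391). The median log2 fold change of all tested genes was −0.07 averaged over the subsets and −0.14 in LYVE1+CX3CR1+ macrophages. In bulk libraries, a smaller number of expressing cells and less RNA per cell cannot be told apart.

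None of the 10 genes was called after IC in LYVE1+CX3CR1+, MHCII+CD11c− or MHCII+CD11c+ macrophages, where 0.963%, 0.701% and 0.216% of all tested genes were, or averaged over the subsets, where 3.35% were. Without adjustment, 1, 2, 0 and 1 of the 10 had a p under 0.05, and voom with quality weights called none in any of these 4 comparisons. The 95% confidence intervals were widest for Tgfbr1, from −0.84 to 1.47 on the log2 scale in MHCII+CD11c+ macrophages, and narrow for Bmpr2, from −0.44 to 0.41 in LYVE1+CX3CR1+ macrophages. Averaged over the subsets, the interval for Tgfbr2 ran from −0.27 to 0.27 and that for Ski from −0.35 to 0.23. Changes within these intervals could not be resolved with these libraries.

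Smad2 (chromosome 18, 76241580 to 76310963, plus strand), a mediator of TGF-beta, had the lowest levels in LYVE1+CX3CR1+ macrophages after IC. Its levels there were 49.2, 37.1 and 21.2 CPM, against 60.5, 48.4 and 54.7 CPM in controls, with overlap of the groups. In MHCII+CD11c− macrophages it was at 40.1, 59.5 and 66.6 CPM after IC and at 37.3, 42.8 and 44.1 CPM in controls. The log2 fold changes pointed in opposite directions (−0.60 ± 0.27 and 0.42 ± 0.27), and their difference of −1.02 ± 0.39 was not called (adjusted p = 0.545). Without LYVE1+CX3CR1+ IC replicate 3 the former was −0.29 ± 0.26, and without MHCII+CD11c− IC replicate 3 the latter was 0.27 ± 0.30. No member was called in any of the 3 comparisons of IC responses between subsets, in which 0.0262% (LYVE1+CX3CR1+ against MHCII+CD11c−), 0.0327% (LYVE1+CX3CR1+ against MHCII+CD11c+) and 0% (MHCII+CD11c+ against MHCII+CD11c−) of genes were. In the last of these, 496 genes had an unadjusted p under 0.05 and DESeq2 called 2. Of the members, only Smad2 in the first had an unadjusted p under 0.05 in the main edgeR fit, and neither DESeq2 nor voom called any member.

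**Figure D1:**
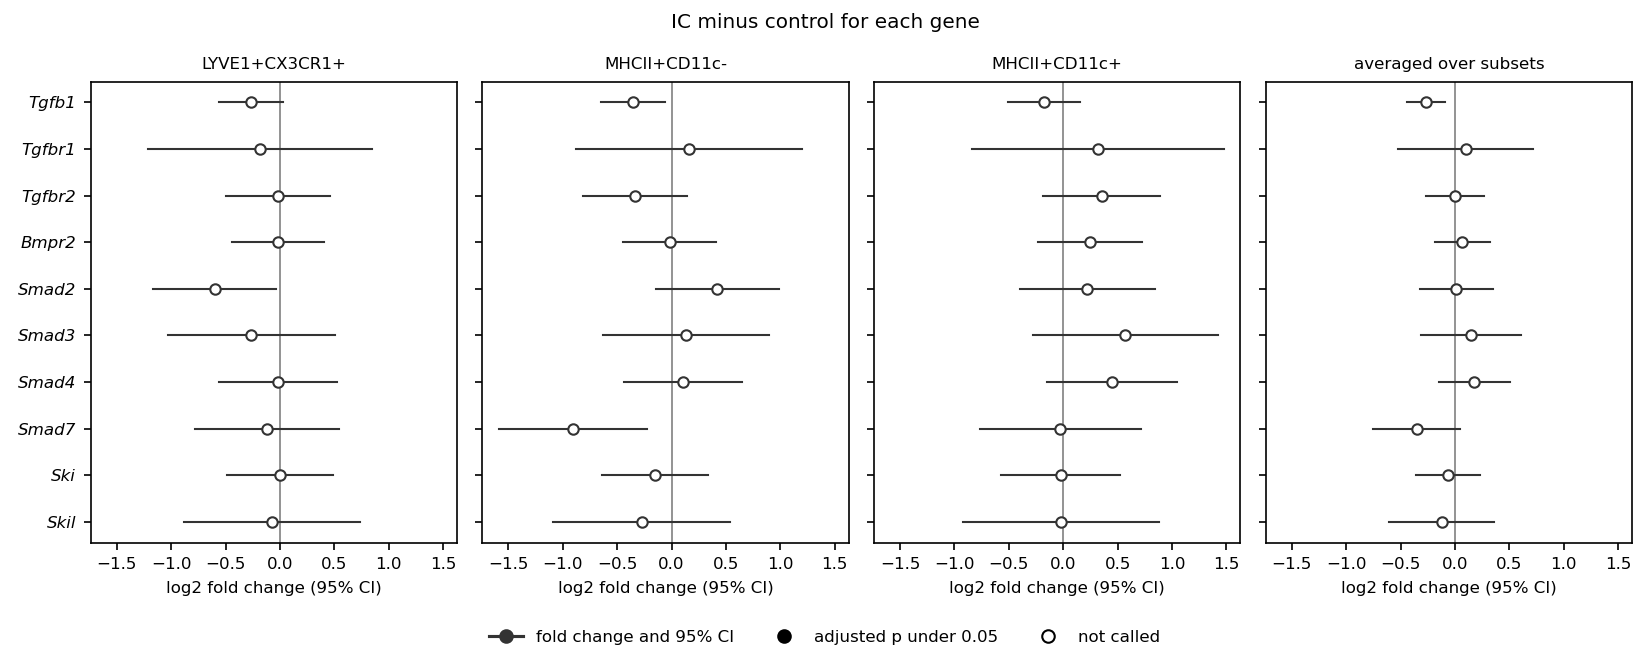
Log2 fold change of IC against control for each of the 10 genes in the 3 subsets and averaged over them, with lines for the 95% confidence interval. Every circle is open, for no call, and Tgfb1 lies below 0 in all 4 panels, at −0.26 in the average.

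Larger differences lay between the subsets. In controls, 4 of the 10 genes were called between the LYVE1+CX3CR1+ and the MHCII+CD11c+ macrophages, where 15.2% of all genes were, and all 4 were higher in the LYVE1+CX3CR1+ cells. They were Tgfbr1, Tgfbr2, Bmpr2 and Ski. The comparison of LYVE1+CX3CR1+ with MHCII+CD11c− controls called 1 gene, Bmpr2, beside 1.56% of all genes, and that of both MHCII+ subsets called 1, Tgfbr2, beside 8.66%. The median log2 fold change of the 10 genes was 0.88 for LYVE1+CX3CR1+ minus MHCII+CD11c+ controls, beside 0.05 for all genes. It was 0.46 for LYVE1+CX3CR1+ minus MHCII+CD11c− controls, beside −0.0041 for all genes. These comparisons share libraries.

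After IC, 3 genes (Tgfbr2, Bmpr2 and Ski) were called as higher in LYVE1+CX3CR1+ cells than in MHCII+CD11c+ macrophages, beside 11.9% of all genes. There were 2 (Bmpr2 and Smad7) between LYVE1+CX3CR1+ and MHCII+CD11c− macrophages, beside 5.54%, and 1 (Tgfbr2) between both MHCII+ subsets, beside 4.03%. Of the 6 calls made in controls, 5 were made again after IC in the same direction, and the exception was Tgfbr1. The IC libraries were separate, but both sets of comparisons came from 1 fit that pooled the spread of all libraries. The share of all genes whose call was repeated was not counted, so no conclusion is drawn from the 5.

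Tgfbr2 (chromosome 9, 116084293 to 116175360, minus strand), which encodes the ligand-binding type II receptor, separated MHCII+CD11c+ macrophages from the other subsets. In controls it was at 622, 480 and 755 CPM in LYVE1+CX3CR1+, at 622, 394 and 569 CPM in MHCII+CD11c− and at 110, 133 and 79.0 CPM in MHCII+CD11c+ macrophages. After IC the levels were 635, 472 and 729 CPM, then 536, 387 and 334 CPM, then 156 and 119 CPM in the same order of subsets. Every MHCII+CD11c+ library lay below every library of the other subsets, in controls and after IC alike. The mean was 5.75-fold higher in LYVE1+CX3CR1+ cells than in MHCII+CD11c+ controls (log2 fold change 2.52 ± 0.25, adjusted p = 1.48e-07) and 4.44-fold higher after IC (2.15 ± 0.28, adjusted p = 1.54e-05). Between MHCII+CD11c+ and MHCII+CD11c− macrophages the log2 fold change was −2.29 ± 0.24 in controls (adjusted p = 1.95e-06) and −1.60 ± 0.27 after IC (adjusted p = 0.000953). The last call was lost without replicate 2 of MHCII+CD11c+ macrophages after IC (adjusted p = 0.0572), and the other 3 held in every alternative. Between LYVE1+CX3CR1+ and MHCII+CD11c− controls the libraries overlapped, with a log2 fold change of 0.23 (95% CI −0.27 to 0.73).

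Bmpr2 (chromosome 1, 59763400 to 59879014, plus strand), the type II receptor for BMPs, was higher in LYVE1+CX3CR1+ macrophages than in both MHCII+ subsets. Control levels were 231, 206 and 243 CPM in LYVE1+CX3CR1+, 134, 136 and 108 CPM in MHCII+CD11c− and 80.0, 116 and 86.6 CPM in MHCII+CD11c+ macrophages. After IC they were 193, 211 and 268 CPM, 158, 88.6 and 127 CPM, and 107 and 117 CPM. The LYVE1+CX3CR1+ libraries overlapped with no other subset of the same treatment. The log2 fold change against MHCII+CD11c+ cells was 1.27 ± 0.21 in controls (adjusted p = 0.000113), called in every alternative, and 1.0 ± 0.24 after IC (adjusted p = 0.00603). Against MHCII+CD11c− cells it was 0.85 ± 0.21 in controls (adjusted p = 0.0330) and 0.85 ± 0.21 after IC (adjusted p = 0.0150). The control call against MHCII+CD11c− cells was lost without any 1 of 5 of the 6 libraries compared (adjusted p up to 0.240), and that after IC without LYVE1+CX3CR1+ replicate 3 or MHCII+CD11c− replicate 2 or 3 (up to 0.110). With all libraries kept, both calls against MHCII+CD11c− cells were also lost with a correction for gene length. The call against MHCII+CD11c+ cells after IC was lost without either MHCII+CD11c+ library (up to 0.0901). The annotation places the unverified gene model Gm38125 on the same strand within Bmpr2, and its reads were not told apart.

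**Figure D2:**
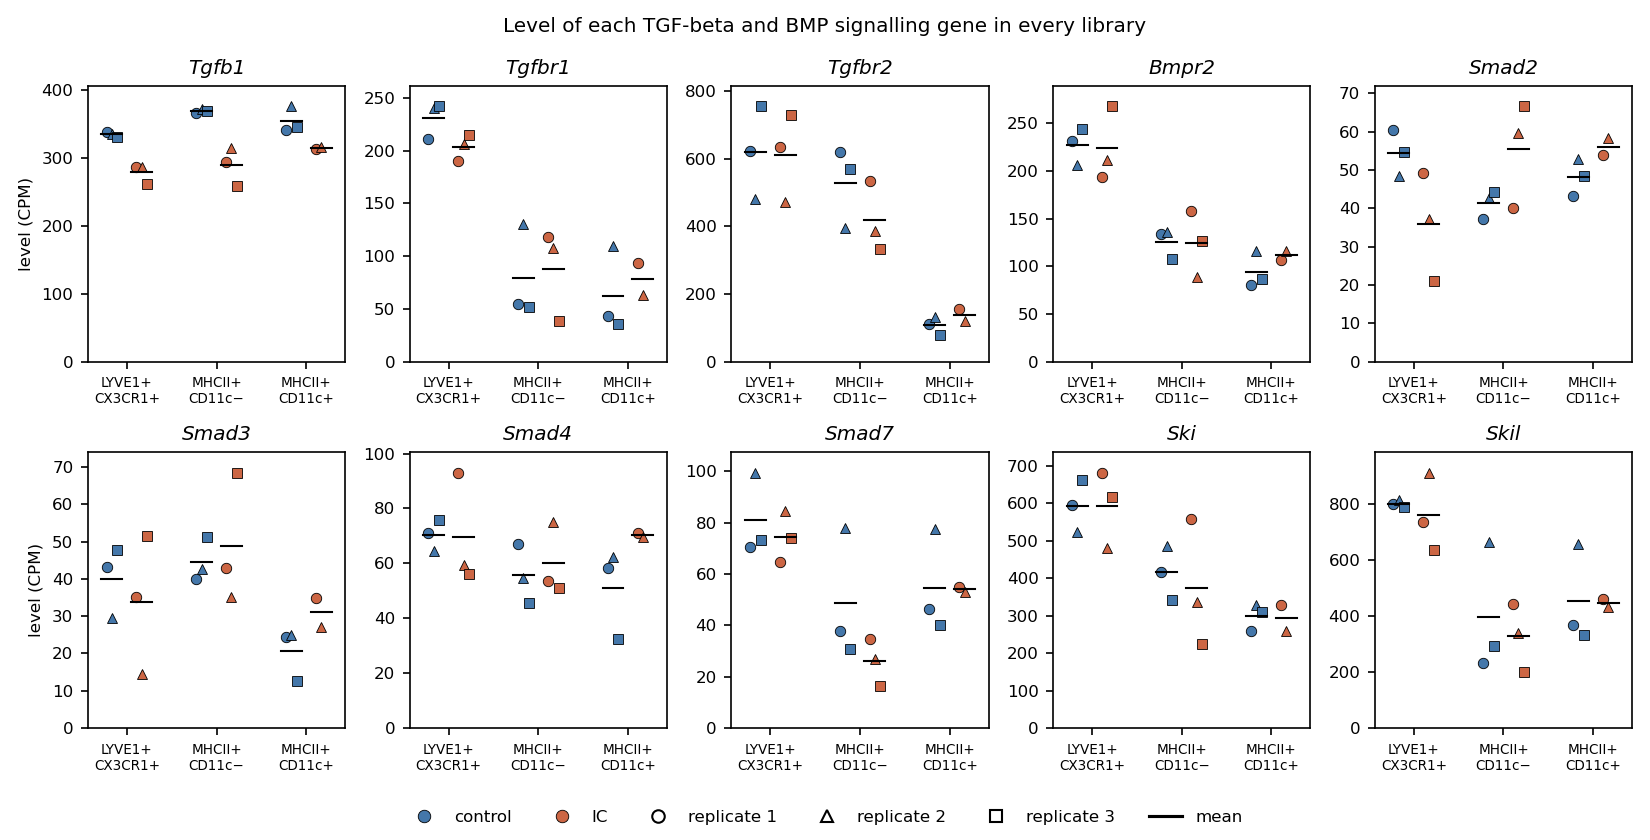
Level of the 10 genes in CPM in each of the 17 libraries, grouped by subset, with controls in blue, IC in orange, symbols for the replicate number and a bar for the group mean. Tgfbr2 is at most 156 CPM in MHCII+CD11c+ libraries and at least 334 CPM in all others, and triangles (replicate 2) are highest in both MHCII+ control groups for Tgfbr1, Smad7 and Skil.

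Tgfbr1 (chromosome 4, 47353222 to 47414931, plus strand), the signalling type I receptor, was highest in LYVE1+CX3CR1+ macrophages. Control levels were 211, 240 and 242 CPM in those cells, 54.6, 130 and 51.5 CPM in MHCII+CD11c− and 42.8, 109 and 35.2 CPM in MHCII+CD11c+ macrophages. After IC they were 191, 206 and 215 CPM, 118, 108 and 38.3 CPM, and 93.3 and 63.6 CPM. All LYVE1+CX3CR1+ libraries lay above all MHCII+ libraries. The log2 fold change between LYVE1+CX3CR1+ and MHCII+CD11c+ controls was 1.87 ± 0.49 (adjusted p = 0.0200), a call that was lost without LYVE1+CX3CR1+ replicate 3 or MHCII+CD11c+ replicate 1 or 3 (adjusted p up to 0.0796). It was 1.54 ± 0.49 against MHCII+CD11c− controls (adjusted p = 0.191). After IC the corresponding values were 1.37 ± 0.56 (adjusted p = 0.138) and 1.21 ± 0.48 (adjusted p = 0.174).

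The spread of Tgfbr1 within the MHCII+ control groups came with replicate 2, and Skil and Smad7 had the same high library. The summed level of 5 markers of the LYVE1+ side (Lyve1, Cx3cr1, Vsig4, Timd4 and Folr2) was 1720 CPM in replicate 2 of the MHCII+CD11c− controls, against 988 and 1120 CPM in replicates 1 and 3. In MHCII+CD11c+ controls it was 581 CPM in replicate 2, against 83.6 and 57.5 CPM, and in LYVE1+CX3CR1+ controls it was between 3550 and 4380 CPM. The part of these markers in the result was not tested. Tgfbr1, Skil and Smad7 were high in replicate 2 of the MHCII+CD11c− controls, so larger differences for them without it were fixed in advance. Without that library, 4 genes were called between the LYVE1+CX3CR1+ and the MHCII+CD11c− controls, against 1 with all libraries. They were Bmpr2 (log2 fold change 0.91 ± 0.24, adjusted p = 0.0377), Tgfbr1 (2.12 ± 0.49, adjusted p = 0.0344), Skil (1.62 ± 0.31, adjusted p = 0.00533) and Smad7 (1.23 ± 0.33, adjusted p = 0.0411).

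Among the signal transducers, the main edgeR fit called no difference between subsets for Smad2, Smad3 or Smad4, and of these only Smad3 was called in an alternative. Smad3 (chromosome 9, 63646767 to 63757994, minus strand) was at 24.5, 25.1 and 12.5 CPM in MHCII+CD11c+ controls, below all MHCII+CD11c− controls (40.1, 42.6 and 51.2 CPM) and all LYVE1+CX3CR1+ controls (43.2, 29.5 and 47.7 CPM). The log2 fold changes of −1.09 ± 0.38 (MHCII+CD11c+ minus MHCII+CD11c−) and 0.94 ± 0.38 (LYVE1+CX3CR1+ minus MHCII+CD11c+) had adjusted p-values of 0.0756 and 0.0961. DESeq2 (adjusted p = 0.0480), the replicate block (0.0359) and equal depth (0.0163) called the former, and voom (0.0409) and equal depth (0.0260) the latter. After IC, Smad3 ranged from 14.5 to 51.4 CPM in LYVE1+CX3CR1+ macrophages and was at 35 and 27.1 CPM in MHCII+CD11c+ macrophages, which lay within that range. Both lay below the 43.0, 35.2 and 68.5 CPM of MHCII+CD11c− macrophages after IC, with a log2 fold change of −0.65 ± 0.42 (adjusted p = 0.568). Smad4 (chromosome 18, 73639009 to 73703780, minus strand), the partner shared by TGF-beta and BMP signals, was between 32.5 and 93.0 CPM over all libraries. A processed pseudogene lies in its span on the opposite strand, and use of the strand in counting was not given in the sources used here. Smad2 had mean levels between 35.8 and 56.1 CPM in the 6 groups.

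The inhibitor genes Ski and Skil also had their highest mean levels in LYVE1+CX3CR1+ macrophages. Ski (chromosome 4, 155154075 to 155222592, minus strand) was at 596, 524 and 662 CPM in LYVE1+CX3CR1+, 418, 486 and 343 CPM in MHCII+CD11c− and 260, 328 and 309 CPM in MHCII+CD11c+ controls. After IC it was at 682, 480 and 617 CPM, 559, 336 and 225 CPM, and 330 and 259 CPM. Between LYVE1+CX3CR1+ and MHCII+CD11c− macrophages, the main edgeR fit did not call Ski in controls (log2 fold change 0.51 ± 0.24, adjusted p = 0.439) or after IC (0.67 ± 0.24, adjusted p = 0.104). DESeq2 (adjusted p = 0.0323), the replicate block (0.0271) and equal depth (0.0476) called the difference after IC, but not that in controls. The edgeR fit without MHCII+CD11c− IC replicate 1 also called that after IC (adjusted p = 0.00274). Those groups overlapped after IC but not in controls. The LYVE1+CX3CR1+ and MHCII+CD11c+ libraries did not overlap, with a log2 fold change of 0.99 ± 0.24 in controls (adjusted p = 0.00518) and 1.01 ± 0.27 after IC (adjusted p = 0.0167). The control call held in every alternative, whereas the call after IC was lost without either MHCII+CD11c+ library (adjusted p up to 0.244). Skil (chromosome 3, 31095058 to 31122577, plus strand) was at 800, 815 and 791 CPM in LYVE1+CX3CR1+ controls, above the 231, 667 and 292 CPM of MHCII+CD11c− and the 367, 659 and 332 CPM of MHCII+CD11c+ controls. After IC its levels were 738, 913 and 637 CPM, 445, 340 and 199 CPM, and 461 and 433 CPM. Although these groups did not overlap either, the main edgeR fit called none of the Skil differences (adjusted p between 0.0834 and 0.305 for the 4 comparisons with LYVE1+CX3CR1+ macrophages). The same edgeR test with the replicate block called all 4 (adjusted p between 0.00189 and 0.0219). Each was also called in at least 2 other alternatives, among them DESeq2 for LYVE1+CX3CR1+ minus MHCII+CD11c− after IC (1.30 ± 0.33, adjusted p = 0.00210).

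Smad7 (chromosome 18, 75367529 to 75395935, plus strand), the inhibitory SMAD, was lowest in MHCII+CD11c− macrophages after IC. It was at 34.8, 26.8 and 16.5 CPM there, against 64.7, 84.3 and 73.8 CPM in LYVE1+CX3CR1+ and 54.8 and 53.1 CPM in MHCII+CD11c+ macrophages after IC. In controls the levels were 37.8, 77.8 and 30.8 CPM, 70.4, 99.5 and 73.1 CPM, and 46.4, 77.6 and 40.1 CPM in that order of subsets. The difference between LYVE1+CX3CR1+ and MHCII+CD11c− macrophages after IC was called (log2 fold change 1.51 ± 0.33, adjusted p = 0.00706), except without MHCII+CD11c− replicate 3 (adjusted p = 0.0555). In controls it was 0.72 ± 0.32 (adjusted p = 0.411), and the interaction of IC with subset, 0.79 ± 0.46, was not called (adjusted p = 0.741). Within MHCII+CD11c− macrophages, the IC change of −0.91 ± 0.33 was not called (adjusted p = 0.284), with overlap of the groups. A fit with 5 surrogate variables called it (−1.16 ± 0.23, adjusted p = 0.0148).

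**Figure D3:**
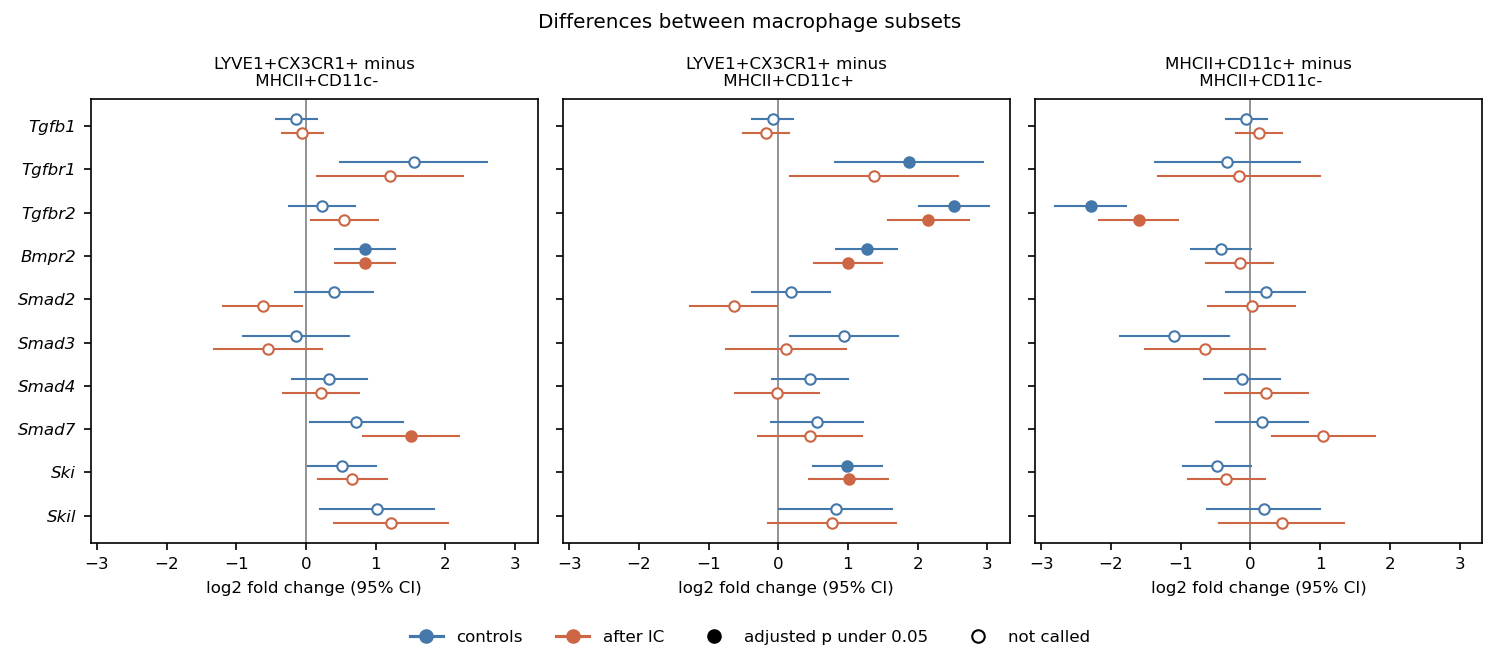
Log2 fold changes between the 3 pairs of subsets for each of the 10 genes, in controls (blue) and after IC (orange), with 95% confidence intervals and filled circles for an adjusted p under 0.05. Tgfbr2 has the largest values, 2.52 for LYVE1+CX3CR1+ minus MHCII+CD11c+ and −2.29 for MHCII+CD11c+ minus MHCII+CD11c− controls.

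Levels of different genes were compared per kilobase of annotated exon. In LYVE1+CX3CR1+ controls the order from the top was Ski at 107 ± 12.3 CPM per kb (SD, n = 3), Skil at 82.7 ± 1.28, Tgfbr2 at 75.6 ± 16.8 and Tgfb1 at 66.6 ± 0.724, followed by Tgfbr1 at 35.3 ± 2.66 CPM per kb. Skil overlapped with Tgfbr2 and Tgfbr2 with Tgfb1 in that order. In MHCII+CD11c+ controls the order began with Tgfb1 at 70.4 ± 3.71, above Ski at 53.8 ± 6.28 and Skil at 46.7 ± 18.5 CPM per kb, which overlapped. Tgfbr2 ranked lower there, at 13.1 ± 3.30 CPM per kb, within the spread of Smad4 at 13.8 ± 4.36 and Smad7 at 12.1 ± 4.45 CPM per kb. In MHCII+CD11c− controls Ski (74.7 ± 12.9), Tgfb1 (73.3 ± 0.700), Tgfbr2 (64.6 ± 14.6) and Skil (40.9 ± 24.4 CPM per kb) each overlapped with the next. Smad2 and Smad3 were between 3.73 and 8.05 CPM per kb in the 3 control groups. Bmpr2 was at 12.6 ± 1.06 CPM per kb in LYVE1+CX3CR1+ controls, with its counts spread over 17983 exonic bases.

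Of a list of 72 other genes of the pathway, 64 were in the table and 58 were tested. In controls, 15 of the 58 (25.9%, beside 15.2% of all genes) were called in the comparison of LYVE1+CX3CR1+ with MHCII+CD11c+ macrophages, 7 higher and 8 lower in the LYVE1+CX3CR1+ cells. There were 3 (5.17%, beside 1.56%) for LYVE1+CX3CR1+ against MHCII+CD11c− and 9 (15.5%, beside 8.66%) for the MHCII+ subsets. After IC the corresponding counts were 10 (17.2%, beside 11.9%), 5 (8.62%, beside 5.54%) and 6 (10.3%, beside 4.03%). The main edgeR fit called no gene of the list in the 3 comparisons of IC responses, in which 2, 4 and 3 had an unadjusted p under 0.05. For IC against control, 2 of the 58 (3.45%) were called averaged over the subsets, near the 3.35% of all genes. In MHCII+CD11c+ macrophages 2 (3.45%, beside 0.216%) were called. None was called in LYVE1+CX3CR1+ or MHCII+CD11c− macrophages, beside 0.963% and 0.701% of all genes. The list was chosen with earlier results of these data known, so no conclusion is drawn from these shares or those of its parts.

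Among other ligands, the TGF-beta genes Tgfb2 and Tgfb3 had mean levels of at most 2.57 CPM in any group, against at least 279 CPM for Tgfb1. Tgfb3 was at 0 counts in all 3 MHCII+CD11c+ control libraries. Bmp2, a ligand that signals through BMPR2, was at 80.3, 108 and 110 CPM in LYVE1+CX3CR1+ controls, 47.4, 85.2 and 49.8 CPM in MHCII+CD11c− and 8.72, 24.3 and 1.89 CPM in MHCII+CD11c+ controls. LYVE1+CX3CR1+ and MHCII+CD11c− controls overlapped. The log2 fold change of LYVE1+CX3CR1+ controls against MHCII+CD11c+ controls was 3.02 ± 0.54 (adjusted p = 0.000907) and 3.0 ± 0.63 after IC (adjusted p = 0.00513). The latter call was lost without MHCII+CD11c+ replicate 2 (adjusted p = 0.113). Gdf3 had 0 counts in all 6 LYVE1+CX3CR1+ libraries, where 3 counts correspond to at most 1.24 CPM. It was between 0 and 2.34 CPM in the MHCII+ controls, with at most 11 counts, and between 3.99 and 14.0 CPM in the 5 MHCII+ libraries after IC.

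Of the genes that hold or release latent TGF-beta, 5 of 9 tested were called between LYVE1+CX3CR1+ controls and MHCII+CD11c+ controls, where 15.2% of all genes were, and these 5 were lower in LYVE1+CX3CR1+ cells. Thbs1, which encodes thrombospondin-1, an activator of latent TGF-beta, was between 3.24 and 8.35 CPM in LYVE1+CX3CR1+ controls and at 172, 117 and 155 CPM in MHCII+CD11c+ controls (log2 fold change −4.52 ± 0.73, adjusted p = 0.000959). Furin, the protease that cleaves the precursor, was at 280, 296 and 275 CPM against 623, 665 and 661 CPM (−1.20 ± 0.22, adjusted p = 0.000453). Nrros, which anchors latent TGF-beta on myeloid cells, was at 215, 175 and 244 CPM against 358, 299 and 387 CPM (−0.72 ± 0.18, adjusted p = 0.00732). The other called genes were Lrrc32 and Ltbp3. The call for Nrros was lost without LYVE1+CX3CR1+ replicate 2 (adjusted p = 0.0556), and those for Thbs1 and Furin held in every alternative. In MHCII+CD11c− controls Thbs1 was at 83.0, 122 and 37.1 CPM, Furin at 307, 453 and 197 CPM and Nrros at 390, 263 and 319 CPM. Furin there overlapped with LYVE1+CX3CR1+ controls, whereas Thbs1 and Nrros overlapped with MHCII+CD11c+ controls.

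Of the 9 other receptor and co-receptor genes tested, Acvrl1 was the one called, and it was higher in MHCII+CD11c+ macrophages. Acvrl1, which encodes the type I receptor ALK1, was at 46.6, 36.0 and 45.8 CPM in LYVE1+CX3CR1+ controls and at 119, 111 and 131 CPM in MHCII+CD11c+ controls (log2 fold change −1.48 ± 0.26, adjusted p = 0.000220). The difference after IC was −1.54 ± 0.28 (adjusted p = 0.000626), and the groups did not overlap in either case. Bmpr1a, a BMP type I receptor gene, had a mean of 18.3 ± 4.46 CPM in LYVE1+CX3CR1+ controls and 2.80 ± 3.48 CPM in MHCII+CD11c+ controls, a difference that was not called (2.61 ± 1.06, adjusted p = 0.115). Smad5, a SMAD of the BMP branch, was 1.96-fold higher in LYVE1+CX3CR1+ cells than in MHCII+CD11c+ controls (adjusted p = 0.0391) and 2.46-fold higher after IC (adjusted p = 0.0217).

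Of the regulators, Tgfbrap1, whose product binds TGF-beta receptors, was, like Tgfbr2, lowest in MHCII+CD11c+ macrophages. It was at 146, 137 and 143 CPM in LYVE1+CX3CR1+, 164, 87.1 and 127 CPM in MHCII+CD11c− and 42.8, 42.4 and 25.7 CPM in MHCII+CD11c+ controls. The log2 fold change between the first and the last was 1.93 ± 0.26 (adjusted p = 8.38e-06), and that between MHCII+CD11c+ and MHCII+CD11c− controls −1.76 ± 0.25 (adjusted p = 6.22e-05). Smurf2, a ubiquitin ligase that acts with SMAD7 on the receptors, was at 115, 109 and 134 CPM in LYVE1+CX3CR1+ controls against 44.7, 55.0 and 56.0 CPM in MHCII+CD11c+ controls (1.20 ± 0.22, adjusted p = 0.000390).

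Among 8 tested target genes, Tgfbi, named for its induction by TGF-beta, was the one called after IC. It was at 2419, 2183 and 2691 CPM in LYVE1+CX3CR1+ controls and at 3798, 3063 and 3672 CPM after IC, and at 983, 1132 and 795 CPM against 2303 and 1759 CPM in MHCII+CD11c+ macrophages. In MHCII+CD11c− macrophages it was at 1805, 1987 and 1452 CPM in controls and 3064, 2080 and 1788 CPM after IC, with overlap. Averaged over the subsets it rose with a log2 fold change of 0.67 ± 0.11 (adjusted p = 0.00107, called in 26 of 26 alternatives), and in MHCII+CD11c+ macrophages with 1.07 ± 0.21 (adjusted p = 0.0270, called in 9 of 14 and with an adjusted p up to 0.903 in the others). Tgfb1 itself was lower in the same IC libraries. The 5 LYVE1-side markers also summed to more after IC, with 5560 to 6520 CPM in LYVE1+CX3CR1+ macrophages (3550 to 4380 CPM in controls) and 1820 to 3290 CPM in MHCII+CD11c− macrophages (988 to 1720 CPM in controls). In MHCII+CD11c+ macrophages they summed to 559 and 266 CPM after IC, within the 57.5 to 581 CPM of controls. The 4 MHCII-side markers summed to 11130 to 11574 CPM in MHCII+CD11c− macrophages after IC and to 16325 to 17607 CPM in controls. The part of these markers in the level of Tgfbi was not tested. The growth factor gene Gdf15 was the other gene of the list called after IC, at 5.74, 6.13 and 1.89 CPM in MHCII+CD11c+ controls and 24.1 and 40.9 CPM after IC (2.76 ± 0.58, adjusted p = 0.0395). That call held in 4 of 14 alternatives. Cited2, which encodes a transcriptional co-regulator, was highest in MHCII+CD11c− cells, at 270, 211 and 391 CPM in controls against 96.8, 111 and 78.3 CPM in MHCII+CD11c+ controls, and the log2 fold change of MHCII+CD11c+ minus MHCII+CD11c− was −1.60 ± 0.22 (adjusted p = 3.93e-05).

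**Figure D4:**
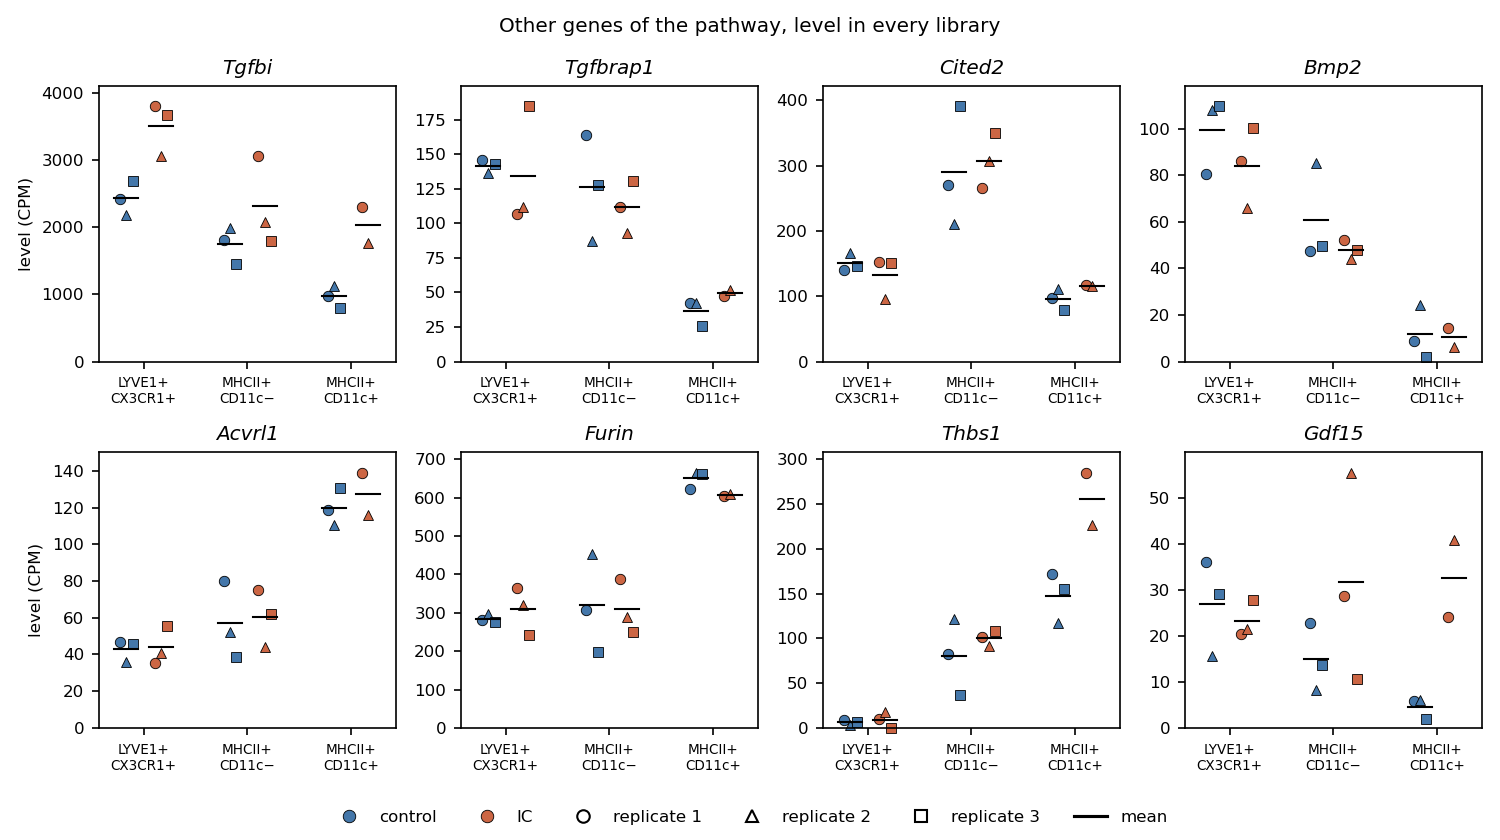
Level in CPM of 8 other genes of the pathway in each library, with colours, symbols and bars as in the plot of the 10 genes. Tgfbrap1 and Bmp2 are lowest and Acvrl1 and Furin highest in MHCII+CD11c+ macrophages. Thbs1 has its highest means there, with overlap of both MHCII+ subsets in controls. Tgfbi is higher after IC without overlap in LYVE1+CX3CR1+ and MHCII+CD11c+ macrophages.

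Markers of other cells differed between groups. The summed level of 8 fibroblast markers lay between 8.70 and 220 CPM, highest in replicate 1 of the MHCII+CD11c+ controls. That of 5 dendritic cell markers was between 218 and 574 CPM in MHCII+CD11c+ libraries and at most 23.3 CPM in LYVE1+CX3CR1+ libraries. In MHCII+CD11c− libraries it was between 91.2 and 225 CPM in controls, overlapping with MHCII+CD11c+ controls, and between 65.2 and 81.8 CPM after IC. The 1 of 3 T cell markers counted was at 0 in all MHCII+CD11c+ control and all LYVE1+CX3CR1+ IC libraries. B cell markers were at 0 in all LYVE1+CX3CR1+ IC libraries and at most 23.4 CPM in any library. In MHCII+CD11c+ macrophages, mast cell markers summed to 0.425 to 3.4 CPM in controls and 17 and 31.2 CPM after IC. Endothelial markers there summed to 3.03 to 15 CPM and 25.3 and 25.6 CPM, and neutrophil markers to 63.9 to 231 CPM and 25 and 29.5 CPM. The part of such cells in the IC differences was not tested. Macrophage markers (Adgre1, Csf1r, Cd68, Fcgr1 and Mrc1) summed to between 2380 and 3610 CPM in MHCII+CD11c+ libraries and to between 4940 and 8320 CPM elsewhere. The part of dendritic cells in the levels of Tgfbr2 and the other genes in MHCII+CD11c+ libraries was not tested.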

How the data were processed

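Libraries of sorted synovial macrophages had been made with a stranded low-input total RNA kit and sequenced in pairs. Per the labels and the study's methods, the authors trimmed reads with Trim Galore, checked them with FastQC, aligned them to mm10 with HISAT2 and deposited whole-number counts per gene symbol from featureCounts, without normalization. Tool versions, the annotation and the use of strand were not given in the sources used here. The authors' own comparisons used DESeq2, with sva for batches that the study does not name. Each library's own file was identical to its column of the joint table in 17 of 17 cases, and 1 unmatched column of the joint table was not used.

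Counts were analysed in R 4.3.3 with edgeR 4.0.16. Genes kept by filterByExpr (minimum count 10) numbered 15272. A mean for each of 6 groups was fitted to all 17 libraries after TMM scaling (glmQLFit, robust, 11 residual degrees of freedom), with contrasts tested with the quasi-likelihood F test and Benjamini-Hochberg adjustment over all tested genes. Genes were called at an adjusted p under 0.05. CPM are TMM-scaled, errors of fold changes are SE, and a gene at 3 counts or fewer was taken to be at the floor, which covers counting error only. The fit was tested on simulated data. Coordinates and exonic lengths are from GENCODE M21 (GRCm38, the build of the files), counted from 1.

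All 10 genes were named. Of the other pathway genes, up to 8 with the smallest adjusted p in each family of comparisons (IC, controls, after IC, IC responses) were eligible, with ligand, receptor and SMAD genes whose level shows presence or absence. The genes and lists were chosen with earlier results of these data known. Smad5, Lrrc32 and Ltbp3 are named outside the first part of this rule, after their values were seen. Bmp4, Inha, Inhbb, Itgb6, Nog, Grem1, Foxh1 and Ctgf of the list were not analysed here. Alternatives were DESeq2 1.42.0, DESeq2 size factors in edgeR, no filter on low counts, only the groups compared, voom with quality weights (limma 3.58.1), surrogate variables (sva 3.50.0), the replicate number as a block, a length correction, equal depth and leaving out each library.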

Additional observations from a re-analysis of the deposited data

How the results depend on the processing

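For the 10 genes, no difference that was called in either setting changed sign in 2190 comparisons of a contrast with an alternative, and 2124 kept their side of the threshold, 21 lost and 45 gained a call. Named genes of the pathway lost a call in 85 of 636. Of the 10 genes, DESeq2 called 1 after IC in MHCII+CD11c− macrophages and 1 averaged over the subsets (Tgfb1 in both), 2 between the LYVE1+CX3CR1+ and the MHCII+CD11c− controls, 2 between the MHCII+ control subsets and 5 between the LYVE1+CX3CR1+ and the MHCII+CD11c− macrophages after IC. With surrogate variables the first 2 of these were 1 and 1 (Smad7), and counts after IC were 4 (LYVE1+CX3CR1+ against MHCII+CD11c−), 5 (LYVE1+CX3CR1+ against MHCII+CD11c+) and 2 (between MHCII+ subsets). The length correction gave 0 and 1 between the LYVE1+CX3CR1+ and the MHCII+CD11c− macrophages in controls and after IC. Equal depth gave 2 between the MHCII+ control subsets. With only the groups compared there were 2 between the LYVE1+CX3CR1+ and the MHCII+CD11c− controls and 5 between the LYVE1+CX3CR1+ and the MHCII+CD11c+ macrophages after IC, and voom gave 3 between the former groups and 2 between MHCII+ subsets after IC. The cause of these differences was not tested.

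Leaving out single libraries gave 0 to 4 calls between the LYVE1+CX3CR1+ and the MHCII+CD11c− macrophages in controls and 0 to 4 after IC. The ranges were 3 to 4 (controls) and 1 to 3 (after IC) between the LYVE1+CX3CR1+ and the MHCII+CD11c+ macrophages, and 1 to 1 and 0 to 1 between the MHCII+ subsets. For the contrast of LYVE1+CX3CR1+ with MHCII+CD11c− macrophages after IC the counts were 1 without LYVE1+CX3CR1+ replicate 3, 4 without MHCII+CD11c− replicate 1, 1 without its replicate 2 and 0 without its replicate 3. Without a MHCII+CD11c+ library after IC, the remaining one was assumed to vary like the other groups.

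Replicate numbers were not treated as pairs in the main fit, since the study does not say that same-numbered libraries share mice. No 2 groups with 3 pairs had a correlation of deviations above 0.1 in each pair. The values were 0.0986, 0.286 and 0.0796 for MHCII+CD11c− with MHCII+CD11c+ controls. Such correlations cannot show whether same-numbered libraries shared mice or a sort, so pairing was left undecided. With the replicate block, 3 of the 10 genes were called between the LYVE1+CX3CR1+ and the MHCII+CD11c− controls, 2 between the MHCII+ control subsets, 5 between the LYVE1+CX3CR1+ and the MHCII+CD11c− and 5 between the LYVE1+CX3CR1+ and the MHCII+CD11c+ macrophages after IC.

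Over all genes, counts of calls moved by over 1.5 times in most contrasts. IC in LYVE1+CX3CR1+ macrophages gave 147 calls, and 46 (voom) to 1558 (surrogate variables). IC in MHCII+CD11c− macrophages gave 107 (71 to 295), in MHCII+CD11c+ macrophages 33 (0 to 97) and averaged over subsets 511 (449 to 1638). In controls there were 238 (204 to 977) for LYVE1+CX3CR1+ against MHCII+CD11c−, 2326 (2165 to 3810) for LYVE1+CX3CR1+ against MHCII+CD11c+ and 1323 (888 to 1953) for the MHCII+ subsets, and after IC 846 (270 to 2712), 1824 (1153 to 4045) and 616 (599 to 1783). The IC responses gave 4 (0 to 172), 5 (4 to 155) and 0 (0 to 2). These ranges hold all libraries. Leaving out 1 library gave 43 to 170, 29 to 173, 0 to 104 and 198 to 673 for the IC comparisons in the order above, 96 to 411, 1591 to 2481 and 785 to 1450 in controls, 437 to 1118, 666 to 1730 and 145 to 610 after IC, and 1 to 7, 3 to 56 and 0 to 21 for the IC responses. Scaling by DESeq2 size factors moved the median over all genes, on the log2 scale, from −0.21 to −0.04 for the difference of IC responses of LYVE1+CX3CR1+ and MHCII+CD11c+ macrophages, and from −0.12 to −0.02 for their difference after IC.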
